A study of Homo sapiens with 4 samples.

Results

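The 42 genes described here are the homologous recombination and Fanconi repair genes measured in SKOV3, a long-established ovarian cancer line of human origin. They were chosen by symbol from a written list of the break repair machinery, though earlier results of these data were known when the list was made. All 42 were found among the 19475 gene symbols of the deposited table. RNA-seq was carried out on 4 libraries: 2 from cells on a tissue culture plate (TCP, labelled day 0) and 2 from tumor spheroids taken at day 8 from polymer X, a plate coated with a thin polymer film. No allele, drug or DNA-damaging treatment is named for either group, and both are the same line, so no other ovarian cancer genotype was sampled. The labels give 1 growth protocol with serum replacement for all 4 libraries, while the study's methods keep stock cells in serum and dissociate spheroids during culture, so substrate, time, passage and possibly medium cannot be told apart. Nothing in the labels says that the 2 libraries of a group came from separate cultures, and the p-values measure the spread between these libraries.

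A DNA double-strand break can be copied back from the sister chromatid by homologous recombination or rejoined directly by non-homologous end joining. In recombination, the MRE11-RAD50-NBN complex and its partners trim the ends, BRCA1 and BRCA2 with their partners ready the single strand for pairing, and helicases take the joined molecules apart. The Fanconi pathway handles crosslinks between DNA strands: a nuclear core complex attaches ubiquitin to the FANCD2-FANCI pair, which then directs cutting and recombination at the stalled fork. Recombination works mainly in S and G2 phase, when a sister chromatid is present, and many of its genes are transcribed periodically in dividing cells. Ovarian cancers with defects in this machinery are known for their sensitivity to PARP inhibitors.

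Each library held between 38405000 and 44912000 mapped tags, recovered from the steps between low values, and 11964 genes passed the filter of at least 1 FPKM in at least 2 libraries. FPKM, tags per length of transcript and per total of the library, is the unit of every level below. Replicates correlated at 0.998 on TCP and 0.997 on polymer X across tested genes, against 0.854 to 0.862 between conditions. The epithelial markers KRT8 and KRT18 lay between 89.3 and 269 FPKM in every library, and KRT7 was at 8.33 and 7.57 FPKM on TCP and 4.57 and 4.04 on polymer X. ERBB2, the receptor gene amplified in SKOV3, was at 198 and 206 FPKM on TCP and 913 and 860.4 on polymer X, and the ovarian epithelial factor PAX8 at 48.8 and 50.5 FPKM on TCP and 102 and 108 on polymer X. EPCAM was at 0.168 and 0.104 FPKM on TCP and 1.39 and 1.32 on polymer X, and KRT19 did not pass the filter. Of 12 markers of blood, endothelial and stromal cells, CD3E, HBB and HBA1 were at 0 in all 4 libraries and 10 stayed under 1 FPKM in each, while CD68 was at 17.05 and 17.4 FPKM on TCP and 42.3 and 44.9 on polymer X and DCN at 0.025 and 0 FPKM on TCP and 7.26 and 6.197 on polymer X. The summed level of the 12 was 17.3 and 17.5 on TCP and 51.4 and 52.8 on polymer X, and its part in the changes below was not tested.

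All 42 repair genes passed the filter, and their expression was mostly lower in spheroids on polymer X. Their summed level was 879 and 901 FPKM on TCP and 414 and 383 FPKM on polymer X. By limma, 19 of the 42 fell, meaning an adjusted p under 0.05 and a log2 fold change of at least 1 in size, and 0 rose. Of all tested genes, 9.45% were called lower and 10.7% higher by the same rule. Among the 19, BRCA2 and FANCB passed the filter only through TCP, so being lower was built into their passing. With no minimum on the size of the change, 35 of the 42 were lower and 4 were higher, against 43.6% and 37.4% of all tested genes. In 35 members both polymer X libraries lay under both TCP libraries and in 4 both lay above, against 48.4% and 41.9% of all tested genes. Both counts of 35 hold BRCA2, FANCB and FANCM, which passed the filter only through TCP. Both counts of 4 hold FANCF, which passed only through polymer X, so the direction of these genes was built into their passing. Each of the 4 higher members (TP53BP1, RAD52, ATM and FANCF) lost its direction or its adjusted p in at least 1 alternative, as given with each. Only PALB2, RAD51B and FANCL had overlapping groups. The median log2 fold change of the members was -0.95, and that of all tested genes was -0.06. Changes are on the scale of log2(FPKM + 1), polymer X minus TCP, which understates the change of genes with low levels. For some members the ratio of mean FPKM is given beside it. Of those without it below, the ratio of TCP over polymer X was 4.28 for FANCB, 2.96 for FANCM and 2.91 for BARD1. It was 2.87 for FANCE, 2.80 for BRIP1 and 2.35 for MRE11. An exact permutation of 2 against 2 libraries cannot give a two-sided p under 0.333, and the p-values below come from limma, which shares the spread across genes.

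**Figure D1:**
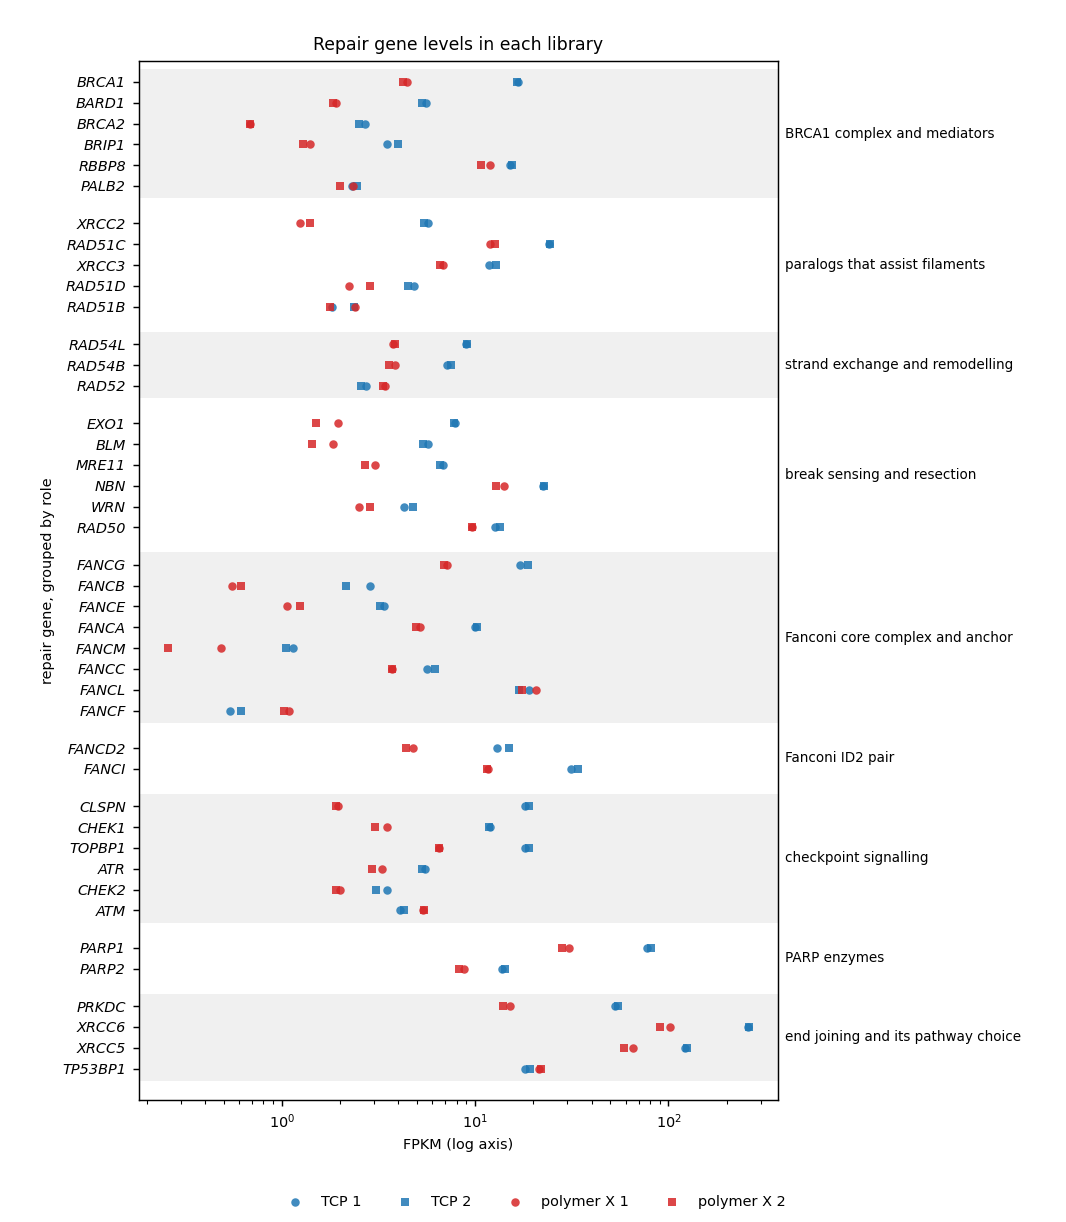
FPKM (log axis) of each of the 42 repair genes in the 2 TCP libraries (blue) and the 2 polymer X libraries (red), grouped by role. In 35 genes both red points lie to the left of both blue points, and in FANCF, ATM, RAD52 and TP53BP1 both lie to the right.

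Genes of dividing cells were lower too. All 30 proliferation markers were tested and 28 fell (93.3%), against 9.45% of all tested genes. Their median log2 fold change was -2.05. Their summed level was 1852 and 1846 FPKM on TCP against 387 and 368 FPKM on polymer X. CDC20, an activator of the anaphase-promoting complex, had a log2 fold change of -3.71, the mitotic kinase PLK1 -2.898 and the spindle kinase AURKA -2.76. Hypoxia-inducible genes went the other way: 12 of 18 rose (66.7%) and 0 fell, against 10.7% and 9.45% of all tested genes. Their median was 2.06, and the largest rises were those of ANGPTL4 (log2 change 5.67), CA9 (log2 change 5.14) and NDRG1 (log2 change 4.24). The part of either list in the changes of the repair genes was not tested. In bulk libraries, fewer cells that express a gene and less RNA per cell cannot be told apart.

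Promoter sequences are shown here because most of the members that fell held at least 1 of 4 short words of the E2F type in a window. RefSeq sequence of GRCh38.p14 was searched from 250 bases before to 50 bases after each annotated start, for 36 of the 42 members. RAD54B, NBN, WRN, FANCI, XRCC5 and PRKDC had no window. For E2F, the factor family that drives S-phase genes, a window counted on either strand if it held the word TTCGCGC, the word TTGGCGC, the word TTCCCGC or else the word TTGCCGC. One or more stood in a window of 14 of 17 members that fell (82.4%), 5 of 12 that were lower by less than the minimum (41.7%) and 3 of 7 that were not lower (42.9%). Among all tested genes with a window the share was 25.6% of 9551, among all called lower 34.3% of 920, and among the proliferation markers 54.2% of 24. Stretches before the start, from 30 bases before the match to at most 30 bases after it, follow for 4 members that fell, 1 that was lower by less than the minimum and 1 that did not pass the test, with the matched letters in capitals.
PARP1: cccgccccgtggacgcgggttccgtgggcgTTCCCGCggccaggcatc
TOPBP1: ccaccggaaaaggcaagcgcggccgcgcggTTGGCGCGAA
BLM: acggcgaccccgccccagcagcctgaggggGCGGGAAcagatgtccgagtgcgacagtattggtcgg
FANCG: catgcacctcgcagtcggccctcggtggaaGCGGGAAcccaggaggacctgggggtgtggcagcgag
FANCA: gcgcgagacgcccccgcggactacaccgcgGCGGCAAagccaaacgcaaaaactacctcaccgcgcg
FANCL: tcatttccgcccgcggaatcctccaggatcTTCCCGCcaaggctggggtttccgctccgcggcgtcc

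These stretches lie at chr1:226408094-226408141, minus strand (PARP1), chr3:133661942-133661981, minus strand (TOPBP1), chr15:90717242-90717308, plus strand (BLM), chr9:35079990-35080056, minus strand (FANCG), chr16:89816783-89816849, minus strand (FANCA) and chr2:58241388-58241454, minus strand (FANCL), all in GRCh38.p14 and written 5′ to 3′ on the strand of the gene. In TOPBP1 the capitals cover 2 overlapping matches, 1 on each strand. BLM, FANCG and FANCA carry the match on the other strand, so it reads as its reverse complement. FANCL held the same letters as PARP1, TTCCCGC, and its level did not pass the test. Of the 14 members that fell with a match, 6 had one wholly before the start and 8 only over or after it, and no match of a member overlapped CCAAT.

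The same count was made for genes with GC-rich windows and for genes with a single window. Among genes whose windows averaged at least 60% G and C, 78.6% of the 14 members that fell held the letters, against 27.7% of 6905 tested genes. The shares were 50% of 8 members lower by less than the minimum, 25% of 4 not lower and 52.9% of 17 proliferation markers. Among genes with 1 window, the shares were 84.6% of 13 members that fell and 21.8% of 6786 tested genes. They were 37.5% of 8 members lower by less than the minimum, 50% of 4 not lower and 44.4% of 18 proliferation markers. The other motifs gave these shares. CCAAT, the box bound by NF-Y, stood in 41.2% of the members that fell and 43.2% of tested genes, against 75% of the proliferation markers. TTTGAA, the cell cycle homology region of mitotic genes, stood in 5.88% and 13.3%, against 33.3% of the proliferation markers. ACGTG, the core of the hypoxia response element, stood in 29.4% and 32.2%, and the STAT letters TTCNNNGAA in 17.6% and 8.32%. A match is a description of these windows, not a bound site, and a part of E2F in the changes was not tested.

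**Figure D2:**
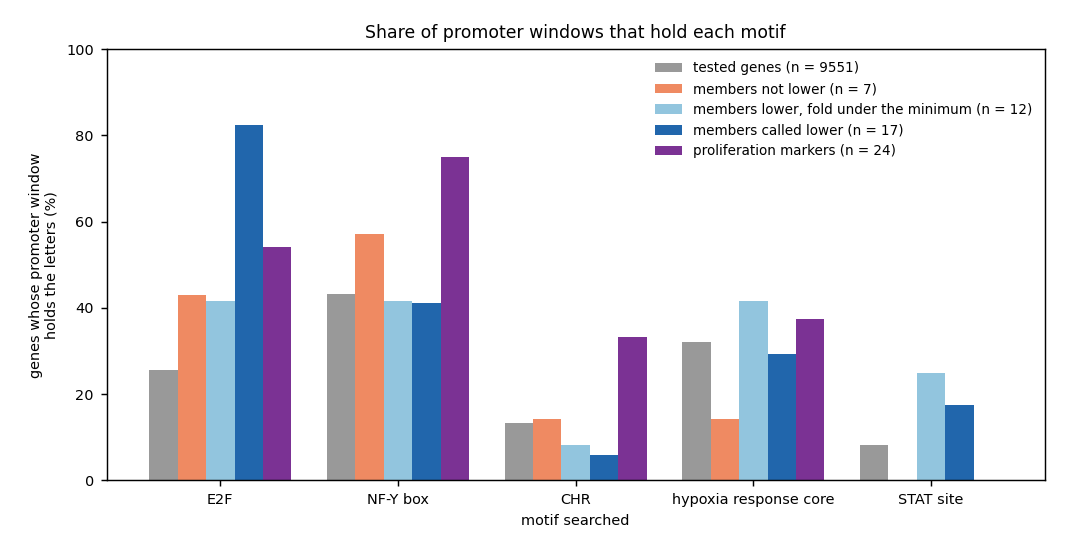
Share of genes (%) whose promoter window holds each of the 5 motifs, for tested genes, for members split by their change, and for proliferation markers, with the number of genes in the legend. The tallest bar is E2F in the members that fell (82.4%). The bars of those members for NF-Y and the hypoxia core (41.2% and 29.4%) lie beside those of the tested genes (43.2% and 32.2%). Their bar for CHR (5.88%) lies under that of the tested genes (13.3%), and their bar for the STAT site (17.6%) lies above it (8.32%).

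The largest change belonged to the replication checkpoint. CLSPN encodes claspin, the adaptor that brings CHK1 to the kinase ATR at stalled forks (chr1:36185819-36235551, minus strand, hg19). It was at 18.03 and 18.96 FPKM on TCP and 1.96 and 1.904 on polymer X. Its polymer X libraries were far under the TCP libraries, 9.58-fold by mean FPKM, with a log2 fold change of -2.73 ± 0.0668 (SE) and limma's adjusted p of 2.2e-09. CHEK1, which encodes CHK1 itself, was at 11.96 and 11.7 FPKM on TCP and 3.48 and 3.01 on polymer X, and fell 3.65-fold with a log2 fold change of -1.600 ± 0.0751 and an adjusted p of 7.6e-08. TOPBP1, the activator of ATR whose promoter is printed above, was at 18.1 and 19.05 FPKM on TCP and 6.53 and 6.46 on polymer X, and fell 2.86-fold (log2 change -1.39 ± 0.0614, adjusted p 5.3e-08). In each of the 3 the replicates of a group lay close together against the distance between groups.

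The other 3 checkpoint genes moved less. ATR, the kinase that senses single-stranded DNA, was at 5.52 and 5.27 FPKM on TCP and 3.296 and 2.94 on polymer X (log2 change -0.64). CHEK2, the kinase downstream of ATM, was at 3.502 and 3.06 FPKM on TCP and 1.99 and 1.91 on polymer X (log2 change -0.54). Both were lower with an adjusted p under 0.05 but by less than the minimum. ATM, the kinase that answers double-strand breaks, was at 4.06 and 4.28 FPKM on TCP and 5.36 and 5.41 on polymer X. Both its polymer X libraries were above both TCP libraries, with a log2 fold change of 0.30 and an adjusted p of 0.00266. On the sum of its 4 transcripts, which counts tags of shared exons more than once, this became 0.01 with an adjusted p of 0.94. The 2 short ATM transcripts at the 5′ end had log2 fold changes of -0.45 and -0.43, and the 2 full-length ones 0.30 each.

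In the BRCA1 complex and its mediators, 4 of 6 genes fell. Of these, BRCA2 passed the filter only through TCP, so being lower was built into its passing. BRCA1 (chr17:41196312-41276132, minus strand, hg19), a ubiquitin ligase of recombination, was at 16.6 and 16.4 FPKM on TCP and 4.44 and 4.21 on polymer X. Both polymer X libraries were far below both TCP libraries: BRCA1 fell 3.81-fold, with a log2 fold change of -1.72 ± 0.0634 and an adjusted p of 1.7e-08. BARD1, its obligate partner, was at 5.58 and 5.31 FPKM on TCP and 1.91 and 1.83 on polymer X (log2 change -1.17). BRCA2, the partner that acts on the trimmed single strand, was at 2.67 and 2.49 FPKM on TCP and 0.68 and 0.682 on polymer X, 3.79-fold lower by mean FPKM (log2 change -1.09). BRIP1, a helicase that binds BRCA1 and is also a Fanconi gene, was at 3.49 and 3.997 FPKM on TCP and 1.399 and 1.28 on polymer X (log2 change -1.02), and it lost the call when TCP replicate 2 (log2 change -0.94) or polymer X replicate 2 (log2 change -0.98) was left out.

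PALB2, the bridge between BRCA1 and BRCA2, did not pass the test. It was at 2.31 and 2.46 FPKM on TCP and 2.32 and 2 on polymer X, with overlapping groups, a log2 fold change of -0.10 ± 0.0838 (95% interval -0.29 to 0.09) and an adjusted p of 0.299. Under quantile normalization it was lower, at -0.36 with an adjusted p of 0.0034. RBBP8, which encodes the resection factor CtIP, was at 15.1 and 15.4 FPKM on TCP and 11.95 and 10.7 on polymer X, lower by less than the minimum (log2 change -0.40).

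The paralog group (XRCC2, XRCC3, RAD51B, RAD51C and RAD51D), which helps protein filaments to form on the single strand, ranged from a fall to overlapping groups. XRCC2 was at 5.69 and 5.43 FPKM on TCP and 1.24 and 1.404 on polymer X, 4.21-fold lower, with a log2 fold change of -1.499 ± 0.0776 and an adjusted p of 1.4e-07. RAD51C, the most abundant of the 5, was at 23.95 and 24.4 FPKM on TCP and 11.9 and 12.7 on polymer X (log2 change -0.93). Both were lower in every polymer X library, RAD51C by less than the minimum. XRCC3 was at 11.8 and 12.8 FPKM on TCP and 6.83 and 6.596 on polymer X (log2 change -0.79), and its span overlaps that of KLC1 on the opposite strand over 3935 bases, whose reads cannot be separated from it where exons overlap. RAD51D was at 4.84 and 4.48 FPKM on TCP and 2.22 and 2.87 on polymer X (log2 change -0.68). RAD51B was at 1.804 and 2.37 FPKM on TCP and 2.4 and 1.78 on polymer X, with the groups interleaved, a log2 fold change of 0.00 ± 0.1197 (95% interval -0.27 to 0.27) and an adjusted p of 0.994. Its SE was the highest of the members, and its 12 listed transcripts ran from -0.04 to 0.27.

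Among the strand exchange and remodelling genes, the 2 RAD54 motor proteins and RAD52 went different ways. RAD54L, a translocase of strand exchange, was at 8.93 and 9.097 FPKM on TCP and 3.77 and 3.82 on polymer X, and fell 2.37-fold (log2 change -1.06). RAD54B was at 7.14 and 7.47 FPKM on TCP and 3.83 and 3.59 on polymer X (log2 change -0.82), and its span overlaps that of FSBP on the same strand over 9241 bases. RAD52, which anneals single strands, was at 2.71 and 2.58 FPKM on TCP and 3.42 and 3.35 on polymer X. All its polymer X values were above its TCP values, at 0.27 with an adjusted p of 0.00767, but the adjusted p missed the threshold under quantile normalization (log2 change 0.05, adjusted p 0.55) and without TCP replicate 2 (adjusted p 0.052).

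Break sensing and resection held 6 genes, and all 6 were lower in both polymer X libraries, as were 48.4% of all tested genes. Of the 6, 2 fell by the threshold. EXO1, the exonuclease of long-range resection, was at 7.899 and 7.73 FPKM on TCP and 1.96 and 1.49 on polymer X. It fell 4.53-fold, with a log2 fold change of -1.699 ± 0.0911 and an adjusted p of 1.8e-07. BLM, the helicase that unwinds recombination intermediates, was at 5.68 and 5.39 FPKM on TCP and 1.84 and 1.43 on polymer X, and fell 3.39-fold (log2 change -1.32 ± 0.0901, adjusted p 8.8e-07). WRN, a related helicase, was lower by less than the minimum, at 4.303 and 4.78 FPKM on TCP and 2.51 and 2.85 on polymer X (log2 change -0.59).

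The 3 subunits of the break sensor changed by unequal amounts. MRE11, the nuclease, was at 6.79 and 6.59 FPKM on TCP and 3.02 and 2.67 on polymer X and lay just outside the threshold at -0.999. NBN, the subunit that recruits ATM, was at 22.3 and 22.7 FPKM on TCP and 14.1 and 12.8 on polymer X (log2 change -0.70). RAD50, the subunit that bridges the ends, was at 12.6 and 13.5 FPKM on TCP and 9.58 and 9.58 on polymer X (log2 change -0.41). The RAD50 to MRE11 ratio of FPKM was 1.86 and 2.05 on TCP and 3.17 and 3.58 on polymer X.

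Of the 8 Fanconi core complex and anchor genes, 3 fell, of which FANCB passed the filter only through TCP. FANCG was at 17.1 and 18.7 FPKM on TCP and 7.13 and 6.91 on polymer X (log2 change -1.24), FANCB at 2.85 and 2.13 FPKM on TCP and 0.553 and 0.61 on polymer X (log2 change -1.14) and FANCE at 3.37 and 3.22 FPKM on TCP and 1.06 and 1.24 on polymer X (log2 change -1.0002), the last just inside the threshold. These 3 bind other subunits of the core and have no enzyme activity of their own. Without TCP replicate 1 the call was lost for FANCB (-0.99) and FANCE (-0.98), and without polymer X replicate 1 for FANCE (-0.94). FANCA was at 9.96 and 10.2 FPKM on TCP and 5.19 and 4.92 on polymer X (log2 change -0.87), and its 2 short transcripts changed more than the full-length ones, with log2 fold changes of -1.41. FANCC was at 5.62 and 6.17 FPKM on TCP and 3.72 and 3.696 on polymer X (log2 change -0.55) and FANCM, the anchor that brings the complex to DNA, at 1.14 and 1.05 FPKM on TCP and 0.485 and 0.256 on polymer X (log2 change -0.62). FANCM had as few as 22 tags in a library, while no gene that fell had under 66.

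The catalytic subunit of the core did not pass the test. FANCL, the ubiquitin ligase that modifies FANCD2 and FANCI, was at 18.9 and 16.8 FPKM on TCP and 20.5 and 17.5 on polymer X, with overlapping groups, a log2 fold change of 0.09 ± 0.0849 (95% interval -0.11 to 0.28) and an adjusted p of 0.372. It became higher under quantile normalization, at 0.27 with an adjusted p of 0.012. FANCF, an adaptor of the core, was low in all libraries, at 0.536 and 0.613 FPKM on TCP and 1.09 and 1.03 on polymer X. Its polymer X values were 1.84-fold above its TCP values by mean FPKM (log2 change 0.39, adjusted p 0.00211), but its sign turned under quantile normalization (-0.21). FANCB, BRCA2 and FANCM passed the filter only through TCP and FANCF only through polymer X, so for these 4, of which FANCB and BRCA2 are among the 19 that fell, a difference was built into their passing.

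Both genes of the pair that the core complex acts on fell. FANCD2 (chr3:10068071-10143621, plus strand, hg19) was at 12.9 and 14.98 FPKM on TCP and 4.79 and 4.41 on polymer X, 3.04-fold lower, with a log2 fold change of -1.42 ± 0.0811 and an adjusted p of 2.7e-07. FANCI (chr15:89787194-89860362, plus strand, hg19) was at 31.1 and 34.2 FPKM on TCP and 11.7 and 11.5 on polymer X, 2.81-fold lower (log2 change -1.42 ± 0.0632, adjusted p 5.5e-08). The FANCD2 to FANCI ratio of FPKM was 0.416 and 0.438 on TCP and 0.410 and 0.382 on polymer X. FANCL, by contrast, stood at 0.607 and 0.492 of the FANCI level on TCP and at 1.76 and 1.52 on polymer X.

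PARP1, the abundant enzyme that marks DNA breaks with poly(ADP-ribose) (chr1:226548392-226595801, minus strand, hg19), was at 77.3 and 81.4 FPKM on TCP and 30.6 and 28.01 on polymer X. Both polymer X libraries lay well under both TCP libraries, a fall of 2.71-fold (log2 change -1.41 ± 0.0623, adjusted p 5.3e-08). PARP2, its smaller relative, was at 13.7 and 14.3 FPKM on TCP and 8.72 and 8.26 on polymer X, lower by less than the minimum (log2 change -0.66).

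The Ku genes of end joining had the highest levels of the members. XRCC6 (chr22:42017346-42060052, plus strand, hg19) and XRCC5 encode Ku70 and Ku80, which together form the ring that caps broken ends. XRCC6 was at 258 and 261 FPKM on TCP and 102 and 90.7 on polymer X, and fell 2.69-fold (log2 change -1.42 ± 0.0681, adjusted p 8.6e-08). XRCC5 was at 122 and 124 FPKM on TCP and 65.5 and 58.7 on polymer X, lower but just outside the threshold (log2 change -0.97). The 2 subunits thus stood at a ratio of 2.12 and 2.11 on TCP and 1.56 and 1.55 on polymer X. PRKDC, which encodes the DNA-dependent kinase that Ku recruits, was at 52.7 and 55.1 FPKM on TCP and 15.2 and 13.96 on polymer X, and fell 3.69-fold (log2 change -1.82 ± 0.06198, adjusted p 1.1e-08), the second largest change of the members on this scale.

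TP53BP1, which shields ends from resection and favours end joining, had the highest mean level of the members that were not lower. It was at 18.2 and 19.1 FPKM on TCP and 21.4 and 21.8 on polymer X, with a change of 0.20 ± 0.0578 and an adjusted p of 0.00951. Both polymer X libraries lay above both TCP libraries by a small margin, and without TCP replicate 1 the adjusted p was 0.098. By mean level the order on TCP was XRCC6, XRCC5, PARP1, PRKDC and FANCI, whereas on polymer X it was XRCC6, XRCC5, PARP1, TP53BP1 and FANCL, with PRKDC behind them at 14.6 FPKM.

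**Figure D3:**
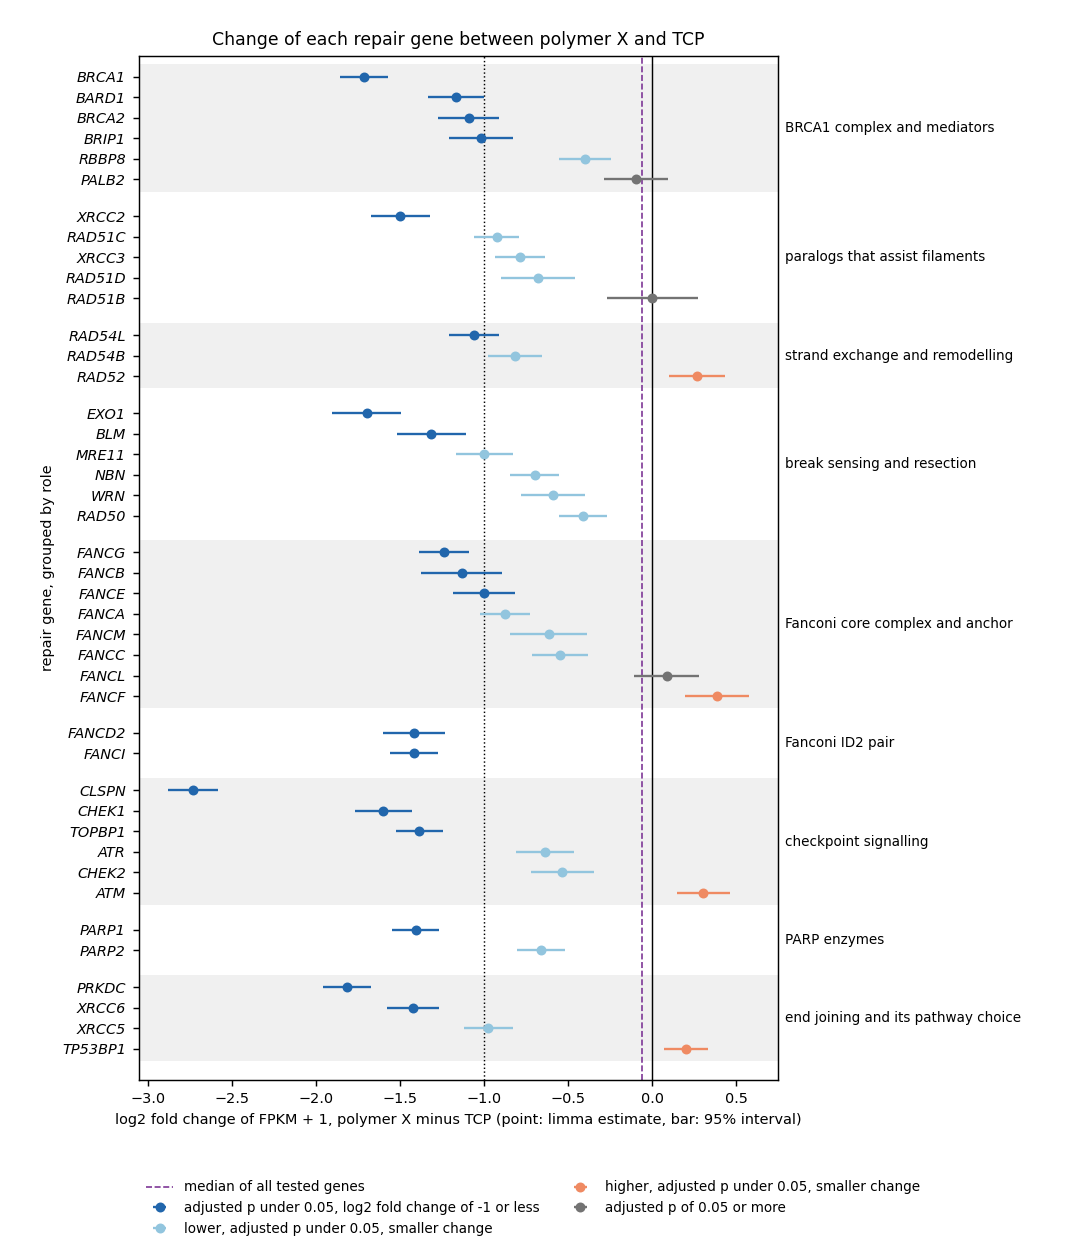
log2 fold change of FPKM + 1, polymer X minus TCP, for each of the 42 repair genes by role, with points for the limma estimate and bars for the 95% interval. The dotted line marks the minimum of -1 and the dashed line the median of all tested genes (-0.06), and CLSPN stands furthest to the left at -2.73.

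Ratios between partners within a library do not depend on the scaling of that library, and 12 pairs were taken after their values were seen, so they carry no test. TP53BP1 stood at 1.09 and 1.17 times the BRCA1 level on TCP and at 4.81 and 5.18 times on polymer X. The ATM to ATR ratio was 0.736 and 0.811 on TCP and 1.63 and 1.84 on polymer X for the transcript kept of each gene. With the listed transcripts summed, ATM lay above ATR on TCP too. Such a sum counts tags of shared exons more than once, and ATM lists 4 transcripts against 2 for ATR. The order of the sums is therefore not an order of levels. PALB2 was at 0.863 and 0.985 of BRCA2 on TCP and at 3.42 and 2.93 times BRCA2 on polymer X, where BRCA2 was at 0.68 and 0.682 FPKM. The BRCA1 to BARD1 ratio, that of an obligate heterodimer, went from 2.97 and 3.09 to 2.32 and 2.30. PARP1 to PARP2 went from 5.63 and 5.70 to 3.51 and 3.39, and CHEK1 to CHEK2 from 3.42 and 3.84 to 1.75 and 1.58. NBN to MRE11 went from 3.28 and 3.44 to 4.66 and 4.799, and RAD52 to RAD54L from 0.303 and 0.283 to 0.906 and 0.875. Of the 12, the FANCD2 to FANCI ratio moved least, from 0.416 and 0.438 to 0.410 and 0.382. Both its polymer X values still lay under both TCP values.

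**Figure D4:**
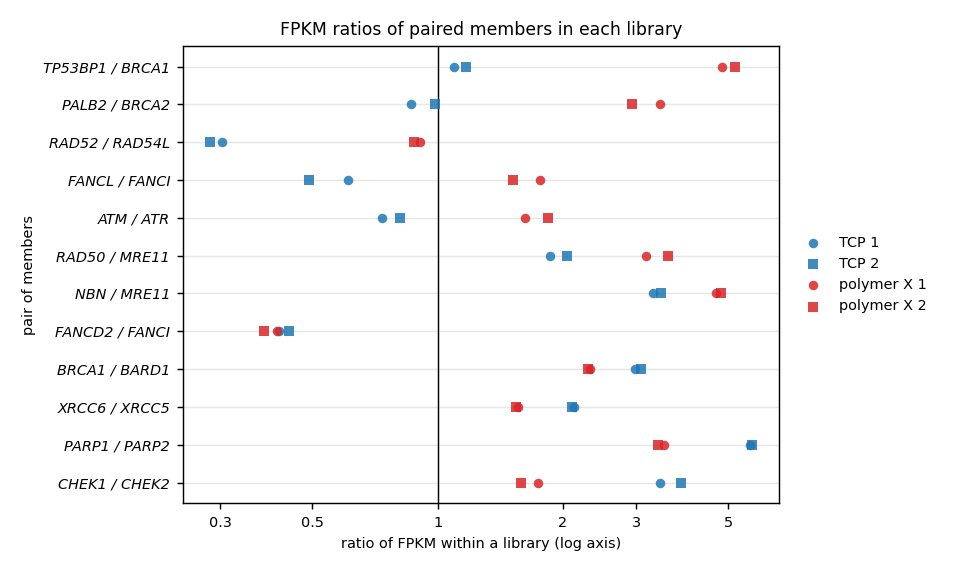
Ratio of FPKM (log axis) of 12 pairs of members within each library, TCP in blue and polymer X in red. The pairs are ordered from the largest rise of the ratio at the top to the largest fall at the bottom. TP53BP1 over BRCA1 moved furthest, to 4.81 and 5.18 on polymer X, and FANCD2 over FANCI least.

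By role, the largest share that fell was in the FANCD2-FANCI pair (2 of 2, median -1.42) and in the BRCA1 group (4 of 6, median -1.06). End joining followed with 2 of 4 (-1.20), checkpoint signalling with 3 of 6 (-1.01) and the PARP enzymes with 1 of 2 (-1.03). Lower shares fell among the Fanconi core genes (3 of 8, -0.75), break sensing and resection (2 of 6, -0.85), strand exchange (1 of 3, -0.82) and the paralog group (1 of 5, -0.79). Of all tested genes, 9.45% were called lower. BRCA2 in the BRCA1 group and FANCB in the core passed the filter only through TCP. With 2 to 8 genes a role, the shares of the roles were not compared by a test.

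Other genes of the same pathways were taken from written lists. Of 31 further recombination genes tested, 11 fell (35.5%) and 0 rose, against 9.45% and 10.7% of all tested genes. DMC1, a meiotic gene, did not pass the filter. The median log2 fold change of the 31 was -0.78. RAD51AP1, a promoter of strand pairing, fell 4.67-fold (log2 change -1.67), and POLQ, the polymerase of microhomology-mediated joining, 4.74-fold (log2 change -1.61). RECQL5, a helicase that limits recombination, was chosen after its values were seen as the 1 gene of the list that was higher with no minimum, at 6.201 and 5.91 FPKM on TCP and 10.95 and 11.7 on polymer X (log2 change 0.81).

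Of 19 further Fanconi and crosslink repair genes, 6 fell (31.6%) and 0 rose, against 9.45% and 10.7% of all tested genes. Their median was -0.51. UHRF1, which binds crosslinked DNA besides its role in DNA methylation, had the largest change, at 20.1 and 22.2 FPKM on TCP and 4.196 and 4.3 on polymer X (log2 change -2.08). UBE2T, the ubiquitin-conjugating enzyme that works with FANCL, was at 20.6 and 19.6 FPKM on TCP and 7.67 and 6.64 on polymer X (log2 change -1.37), and RFWD3, a ubiquitin ligase of the pathway, at 19.7 and 20.5 FPKM on TCP and 7.41 and 6.91 on polymer X (log2 change -1.37). UBE2T thus passed the test and its ligase FANCL did not, and the difference between them was not tested.

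Of 25 further break signalling genes, 4 fell (16%) and 0 rose, against 9.45% and 10.7% of all tested genes, with a median of -0.53. CDC25A, the phosphatase that CHK1 targets, was at 9.096 and 9.63 FPKM on TCP and 1.28 and 1.37 on polymer X (log2 change -2.16). H2AFX, the histone variant phosphorylated around breaks, was at 141.7 and 141.6 FPKM on TCP and 46.5 and 46.7 on polymer X (log2 change -1.58), and TIMELESS, of the fork protection complex, at 30.2 and 30.8 FPKM on TCP and 11.4 and 9.85 on polymer X (log2 change -1.44).

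Of 14 further end joining genes, 0 fell and 1 rose, against 9.45% and 10.7% of all tested genes, with a median of -0.15. POLM, a polymerase that fills gaps during end joining, was at 2.13 and 2.12 FPKM on TCP and 5.96 and 6.73 on polymer X, and rose 2.99-fold (log2 change 1.23 ± 0.0785, adjusted p 5.4e-07).

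**Figure D5:**
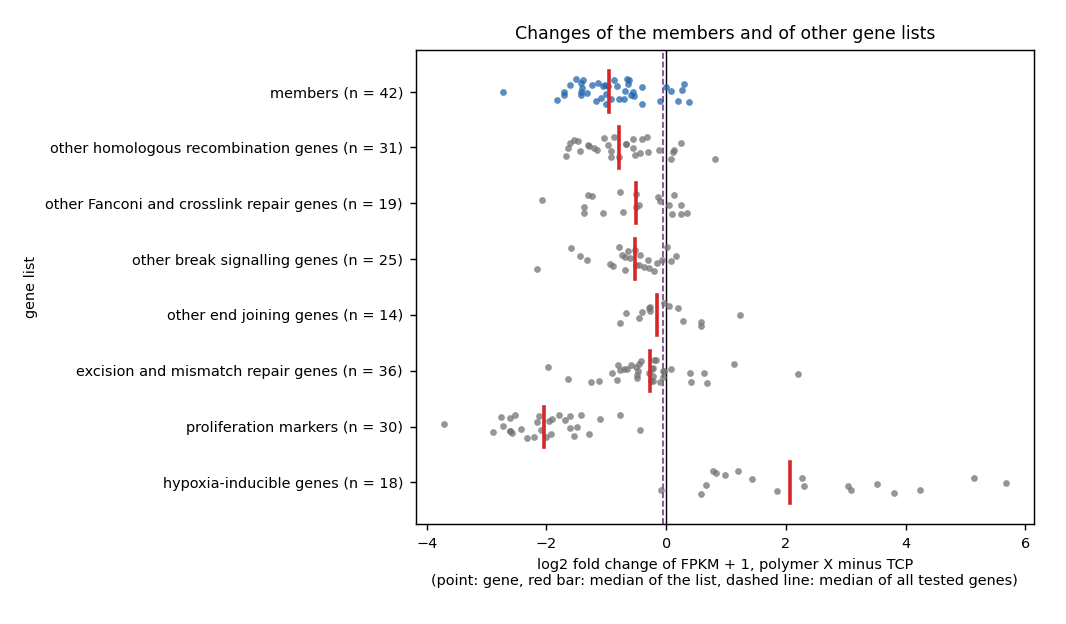
log2 fold change of FPKM + 1, polymer X minus TCP, of the members and of 7 other gene lists, where each point is a gene and the red bar the median of its list. The medians are -0.95 for the members, -0.78 to -0.15 for the 4 lists of related repair genes, -2.05 for proliferation markers and 2.06 for hypoxia-inducible genes.

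For 30 members the table lists more than 1 transcript, and in 25 of these the log2 fold changes of the transcripts lay within 0.2 of each other. CLSPN ran from -2.73 to -2.46 over 3 transcripts and BRCA1 from -1.80 to -1.72 over 5. RAD54B ran from -0.82 to -0.32 over 3. Only ATM and RAD51B had transcripts of both signs. The values count tags on both strands, so reads of an opposite-strand neighbour are included where exons overlap: FANCA with ZNF276, FANCL with VRK2, FANCD2 with FANCD2OS, FANCI with POLG, ATM with C11orf65, TP53BP1 with TUBGCP4, RAD54L with LRRC41 and WRN with PURG overlap in their spans. CHEK2 and FANCD2 also have near-identical pseudogene copies in the genome, and their values are uncertain to that extent.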

How the data were processed

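RNA-seq data of 4 libraries of SKOV3 cells were analysed, 2 per group, from 1 deposited table. Per the labels, mRNA libraries were prepared with a directional kit, and the submitters' processing notes name STAR 2.4.0, HOMER, DESeq and hg19 without their roles. The authors deposited FPKM values for 50078 RefSeq transcripts, made per the file headers with HOMER on exons, from tags of either strand, divided by transcript length and library total, so strand was not used and genes that share sequence cannot be separated. The header command also names libraries that were not analysed here, and 0 value columns were left unused.

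For each symbol (10500 of 19475 had more than 1 transcript) only the transcript of highest mean FPKM was kept. Tag totals were recovered from the steps between low values of up to 12 tags, of which 100% lay within 0.1 of a whole number. Between 52.0% and 57.6% of these were even numbers, so some tags may be mates of a pair. The test was limma 3.58.1 (R 4.3.3) on log2(FPKM + 1), with a trend of the variance on the mean and without a block for the replicate number, for genes that reached 1 FPKM in 2 or more libraries. The p-values were adjusted by Benjamini and Hochberg over all 11964 tested genes. The threshold was an adjusted p of 0.05 with a log2 fold change of 1 or more in size. The script was tested on simulated data. Ratios, ranges, motif searches and figures used Python 3.11.15 with pandas 2.3.3, numpy 2.4.6 and matplotlib 3.10.9.

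The members and gene lists were chosen with earlier results of these data known, so lists are described by counts and medians without a test. Full statistics were given for the 12 called members with the largest change and the 4 nearest to no change, every member was named, and of each other list up to 3 called genes a direction were named, by size of change. Of the 34 further recombination genes listed, HROB and FBXO18 matched no symbol. The values of 1 gene of that list are not reported here. Same-numbered libraries of the groups had deviations that correlated at 0.0927. Alternatives covered the pseudocount, filter, scaling, replicate block, choice of transcript, variance trend, fold minimum and each library left out.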

Additional observations from a re-analysis of the deposited data

How the results depend on the processing

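The count of members called lower (19) stayed within 1.5 times under most alternatives: 21 with a pseudocount of 0.1, 19 with no filter, 21 with quantile normalization, 17 with scaling to a common median, 21 with the transcripts of a gene summed, 19 with no variance trend, and 17 to 20 with each library left out. It became 11 of 22 tested members at a mean FPKM of at least 5, 35 with no fold minimum and 1 (CLSPN) when the minimum was raised to 2. The count called higher stayed at 0 in each of these except with no fold minimum, where it was 4. The members' median of -0.95 became -1.10 with a pseudocount of 0.1, -1.02 at a mean FPKM of at least 5, -0.91 with scaling to a common median and -0.99 with summed transcripts, and ran from -0.96 to -0.92 with each library left out. The replicate block gave 19 lower and 0 higher with a median of -0.95 and changed no call. The labels do not say whether same-numbered libraries were paired, and 2 libraries a group cannot decide it. Of the 19 calls, 16 held at the same minimum in every fit that tested them, of which BARD1, BRCA2, XRCC2, EXO1 and BLM were not tested at a mean FPKM of at least 5. BRIP1 and FANCE lost theirs with scaling to a common median (-0.99 and -0.97), and BRIP1, FANCE and FANCB with a library left out, as given with each gene. RAD51B reversed to -0.29 and FANCF to -0.21 under quantile normalization. With each library left out, RAD51B ran from -0.14 (without polymer X replicate 1; -0.13 without TCP replicate 1) to 0.15, and FANCL from -0.024 (without polymer X replicate 1) to 0.19. The cause of these was not tested. MRE11 passed the minimum with a pseudocount of 0.1 (-1.20), quantile normalization (-1.12), summed transcripts (-1.14) and 2 of the 4 fits with a library left out, FANCM with the first 2 of these (-1.39 and -1.01), FANCA with summed transcripts (-1.23) and XRCC5 without polymer X replicate 1 (-1.05). At a mean FPKM of at least 5, fewer genes were tested: 7 further recombination genes were called lower (11 before), 0 further end joining genes higher (1 before, POLM, under that filter) and 702 of all genes higher (1285 before). Depth limits the low members: FANCM had 22 tags in 1 library, and counting errors cover tags only.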

Other observations

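Excision and mismatch repair genes, which mend damaged bases, bulky lesions and replication errors rather than breaks, included calls in each direction. Of 36 tested, 4 fell (11.1%) and 2 rose (5.56%), against 9.45% and 10.7% of all tested genes, with a median log2 fold change of -0.27, and with no fold minimum 24 were lower and 6 higher, against 43.6% and 37.4% of all tested genes. The DNA glycosylases, which cut out damaged bases, went different ways. NEIL3, which also unhooks crosslinks, was at 11.6 and 13.2 FPKM on TCP and 2.35 and 2.44 on polymer X, and fell 5.18-fold (log2 change -1.98 ± 0.0769, limma's adjusted p 2.4e-08). NEIL1, of the same family, was at 2.29 and 1.76 FPKM on TCP and 13.7 and 12.2 on polymer X, and rose 6.38-fold (log2 change 2.21 ± 0.0963, adjusted p 4.9e-08). All polymer X values of NEIL1 lay above all TCP values and all those of NEIL3 below. UNG, which removes uracil, was at 46.9 and 43.6 FPKM on TCP and 20.3 and 16.7 on polymer X (log2 change -1.25), and MPG, which removes alkylated bases, at 48.8 and 45.2 FPKM on TCP and 104 and 105 on polymer X (log2 change 1.13). FEN1, the flap nuclease of replication and long-patch repair, fell 3.202-fold, at 64.3 and 61.8 FPKM on TCP and 21.5 and 17.9 on polymer X (log2 change -1.64).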
